A study of Sus scrofa domesticus and Sus scrofa with 18 samples.

Results

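In the pig spleen, 100 genes stood highest at 180 days of age (A180d), above every earlier stage and above 2 years. The study listed them as protein-coding. Of the 63 with a symbol, 14 carry out work of B cells, plasma cells, T cells or natural killer (NK) cells by roles assigned after their values were seen, 9 act in the endoplasmic reticulum, the Golgi apparatus or glycosylation, and the rest have other roles. The genes were selected on their measured values. A gene was taken when its mean log2(FPKM+1) at A180d exceeded each of the other 4 domestic stage means by at least 0.75 and its mean over all 18 libraries stayed below 10. FPKM is the number of fragments mapped to a transcript, relative to its length and to all fragments mapped, so levels are per length, and a step of 1 on this scale is a doubling of FPKM+1. The 100 genes were 0.774% of the 12913 genes measured, and the peak at A180d is therefore a description of how they were chosen and not a result.

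The spleen filters blood in its red pulp and houses lymphocytes in its white pulp, where B cells meet antigen in follicles and T cells lie around the small arteries. B cells that respond can become plasma cells, which fill an enlarged endoplasmic reticulum with antibody. Cytotoxic T cells and NK cells carry granules of killing proteins. In growing animals the white pulp expands after birth as antigen arrives.

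Whole spleens of female pigs were compared, with 3 healthy animals and 3 libraries in each of 6 groups, each library from a separate animal. Rongchang pigs, a domestic breed, were sampled 55 days before birth (E55d), just after birth (B0d), 30 days after weaning (W30d), at 180 days (A180d) and at 2 years (A2Y), and 2-year-old Wild Boars (WB) were the sixth group. The labels name no treatment. WB and A2Y share their age and differ in breed and in where the animals lived, while WB and A180d differ in age as well, so these factors cannot be told apart. In RNA from bulk tissue, fewer cells of a type and less RNA per cell cannot be told apart.

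The reads behind each value are not known here, since only FPKM was used, and no counting interval can be given. The tissue label was checked against marker lists. The summed FPKM of the 9 measured B cell markers was 190 to 213 over the A180d libraries, that of the 13 T cell markers 393 to 467, and that of the 12 markers of red pulp macrophages 2087 to 2328, with none of these markers at 0 in any A180d library. No gene of the pancreas or skeletal muscle list was matched by symbol, so these 2 tissues could not be checked. Some libraries stood apart. The single most abundant gene took 16.0% of all FPKM in A180d replicate 1 and 32.2% in replicate 2, against 36.9% to 53.6% in the other 16 libraries. In W30d replicate 2, 62 of the 100 genes were above their own mean over the 18 libraries, against 24 and 25 in the other W30d libraries. The A2Y libraries held 83, 64 and 50 such genes, in the order of their replicate numbers.

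The stage means that chose the 100 genes also describe their course. Taken back to FPKM from each gene's mean log2 value, the median over the genes went from 2.40 in the embryo (E55d) to 3.44 in the newborn (B0d), 7.46 in weaned pigs (W30d) and 27.3 by A180d. It was 12.7 in the A2Y libraries and 13.0 for WB. For 64 genes the mean rose at each step from E55d to A180d (16.5% of all genes), and 73 had their lowest domestic mean at E55d (41.3% of all). The highest of the other stages was A2Y for 72 genes (40.0% of all), W30d for 16, B0d for 7 and E55d for 5. The rule used these means, so nothing is read from the counts. The margin over that next stage had a median of 0.87 and ran from 0.75 to 2.87. At the edge of the rule, C3 (0.7544) and IL17RA (0.7527) were the genes just inside, and SUPT5H (0.7432) and ATXN7L3 (0.7408) were just outside. A further 9 genes had the margin but were over the level limit, among them the small nucleolar RNAs SNORA74 and SNORD17. The genes that the study listed as protein-coding thus include some non-coding RNAs. Whether every gene with no symbol codes for a protein was not checked.

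**Figure D1:**
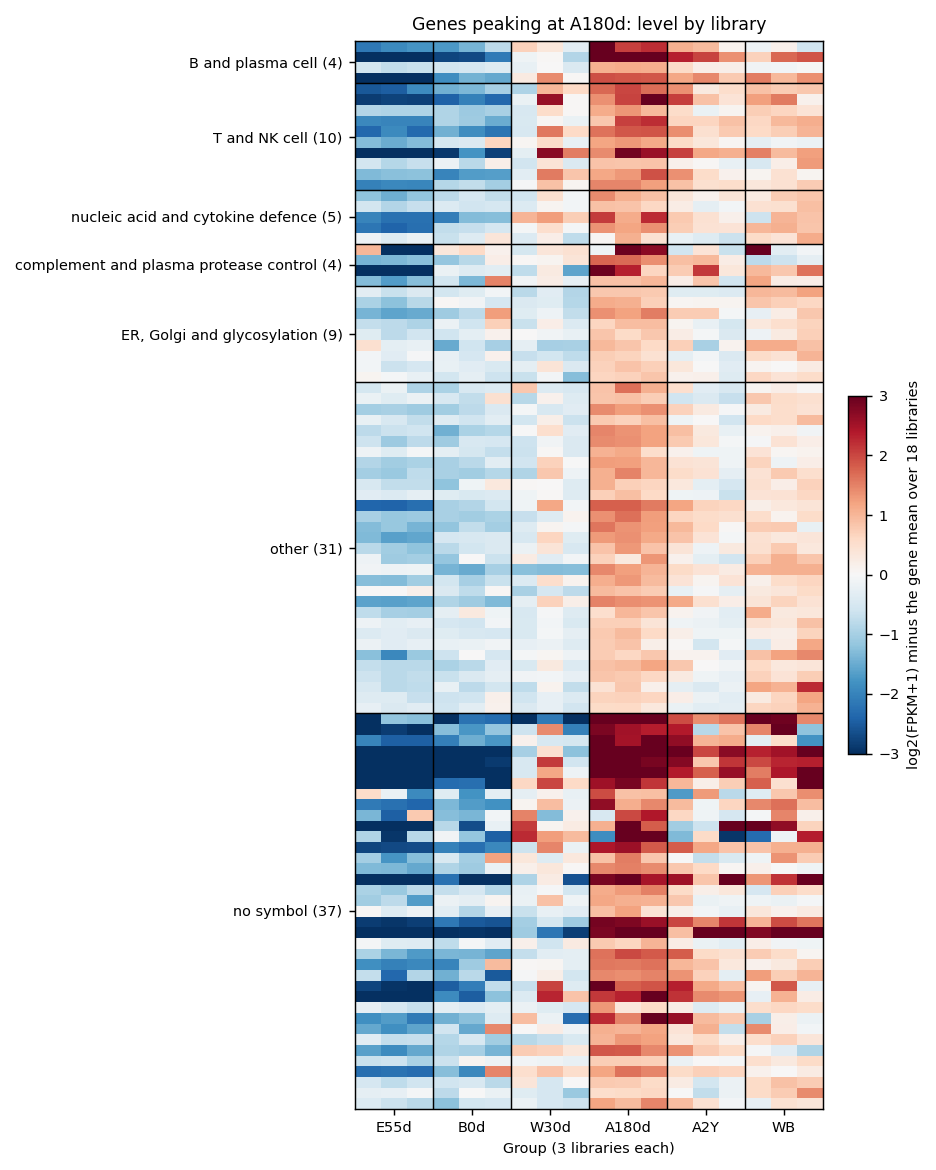
Rows are the 100 genes, grouped by role with the number of genes in parentheses, and columns are the 18 libraries in their 6 groups; the colour is log2(FPKM+1) minus the gene's mean over the 18 libraries, drawn from -3 to 3 with values beyond shown at the end of the scale. The A180d columns are red for nearly every gene because the genes were chosen for that, and W30d replicate 2, the middle W30d column, is redder than the libraries beside it.

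By the same limits, 528 genes peaked at E55d, 91 at B0d, 40 at W30d and 92 at A2Y, and 118 genes had their lowest level at A180d. Among the 15040 long non-coding RNAs (lncRNAs), 18 peaked at A180d by the same rule, which was 0.12% of them, and 160 (1.06%) had their lowest level there. Fewer lncRNAs were detected at A180d (median 11195 per library) and in WB (11245) than at A2Y (13110). At E55d, B0d and W30d the medians were 12350, 12629 and 12447. The paper lists more sequence for each A2Y library than for any A180d or WB library. Its amounts for E55d and W30d overlap those for A180d and WB, and its amounts for B0d are above them. The part of depth in these counts was not tested.

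Replicates at A180d were close for most of the genes and far apart for some. The range over the A180d libraries had a median of 0.37, and it was larger than the margin for 18 genes. In 73 genes every A180d library was above each of the 12 other domestic libraries, while this held for 4.86% of all genes; since the rule used these libraries, nothing is read from that count. When the rule was applied with A180d replicate 1, 2 or 3 left out, it chose 102, 99 and 126 genes, of which 84, 81 and 82 were among the 100. The library left out was above every other stage mean in 90.2%, 94.9% and 92.9% of the genes so chosen, against 25.4%, 25.6% and 19.3% of all genes. It was above by at least 0.75 in 56.9%, 63.6% and 34.9% of them, against 1.29%, 1.54% and 0.96% of all genes. The other stage means in this comparison were those that chose the genes as low there, so part of the excess over all genes is built in. The number of genes depended most on the A2Y libraries. Without A2Y replicate 1, 159 genes met the rule, 95 of them among the 100, and without A2Y replicate 3, 72 did, 64 of them among the 100.

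The genes with symbols were sorted by role after their values had been seen, so the groups below are a way of reading the set. Of the 63 genes with a symbol, 4 belong to B and plasma cells, 10 to T and NK cells, 9 to the endoplasmic reticulum, Golgi and glycosylation, 5 to defence against nucleic acids and to cytokine signalling, 4 to complement and plasma protease control, and 31 to other roles. The other 37 genes have an identifier with no symbol in the table used.

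VPREB1 and MZB1, genes of B and plasma cells, had margins of 1.79 and 1.30, and of genes with a symbol only A2M (1.49) came between them. VPREB1 encodes a part of the surrogate light chain, which pairs with the heavy chain in the receptor of precursor B cells. The gene table that gave this symbol may differ in release from the annotation used, so the assignment is uncertain. VPREB1 was 6.15, 5.00 and 5.17 at A180d, 4.01, 3.89 and 3.06 at A2Y and 3.63, 3.27 and 2.64 at W30d. At E55d it lay between 0.79 and 1.17, at B0d between 1.22 and 2.16, and in WB it was 2.78, 3.09 and 2.35. VPREB1 thus rose at each step to A180d, where no library overlapped another stage, and its mean log2 value corresponds to an FPKM of 42.4 at A180d and 11.6 at A2Y. The margin of 1.79 was 3.45-fold on the FPKM+1 scale. MZB1, a chaperone of the endoplasmic reticulum that helps assemble antibody in B and plasma cells, was 8.30, 8.11 and 8.54 at A180d, 7.44, 7.13 and 6.49 at A2Y and 4.98, 5.14 and 4.24 at W30d. In WB, MZB1 was 5.79, 6.83 and 7.01, below every A180d library and overlapping A2Y. The mean log2 value of MZB1 at A180d corresponds to an FPKM of 318, and its margin was 1.30.

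BLK, a Src family kinase of B cell receptor signalling, was low in every library but tight at A180d. It was 2.06, 2.11 and 2.08 there, 1.56, 1.18 and 1.16 at A2Y, 0.76, 1.01 and 0.56 at W30d, and 0.89, 0.90 and 0.96 in WB. No A180d library of BLK overlapped any other group. SLA-DQB1, a beta chain of MHC class II, which presents peptides to helper T cells, was 8.43, 8.38 and 8.36 at A180d and 7.65, 7.93 and 7.28 at A2Y. How reads shared with related genes were counted is not given in the sources used here, so values of such family members as VPREB1, SLA-DQB1 and the actin gene ACTB are uncertain in that respect. All 4 genes of this group rose at each step from E55d to A180d, as did 64 of the 100 and 16.5% of all genes.

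The 10 T and NK cell genes had margins from 0.75 to 1.08. CD6, a receptor on the surface of T cells, was 4.39, 4.67 and 4.34 at A180d, 4.03, 2.96 and 3.19 at A2Y, 1.73, 3.66 and 3.27 at W30d, and 3.55, 3.44 and 3.46 in WB. Both at A2Y and at W30d, 1 animal differed from the other two, and no library reached the A180d values. GNLY encodes granulysin, a pore-forming protein of killer cell granules. It was 4.50, 5.16 and 6.28 at A180d, but 5.75 in W30d replicate 2, where the other W30d libraries had 2.92 and 3.18, and 5.21 in A2Y replicate 1. CCL5, a chemokine that killer cells release, showed the same library: it was 6.98, 8.44 and 8.16 at A180d and 5.26, 8.26 and 7.08 at W30d. For GNLY and CCL5 the A180d libraries therefore overlapped W30d and A2Y, and only the means placed them among the 100. Without A180d replicate 3 the margin of GNLY was 0.58, and without replicate 2 that of CCL5 was 0.58, both below the limit.

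W30d replicate 2 was also the highest W30d library for CST7, IL21R, CXCR6 and DOK2. CST7 encodes cystatin F, an inhibitor of granule proteases, and was 4.20, 4.43 and 4.46 at A180d, 3.98, 3.05 and 3.35 at A2Y, 2.08, 4.15 and 3.18 at W30d and 3.17, 3.32 and 3.59 in WB. IL21R, the receptor of interleukin 21, was 2.93, 3.04 and 2.87 at A180d, 2.32, 2.08 and 1.79 at A2Y and 1.46, 1.64 and 1.56 in WB. CXCR6, a chemokine receptor of resident T cells, was 2.85, 4.10 and 4.25 at A180d, and A180d replicate 1 lay below A2Y replicate 3 (2.92). DOK2, an adaptor that dampens receptor signalling in blood cells, was 2.74, 2.96 and 2.61 at A180d, 2.17, 1.42 and 1.71 at A2Y and 1.14, 2.17 and 1.66 at W30d. The group also held JAK3 and MAP4K1, kinases of lymphocyte signalling. Over the 10 genes, 6 had every A180d library above each other domestic library, against 73 of the 100 and 4.86% of all genes.

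**Figure D2:**
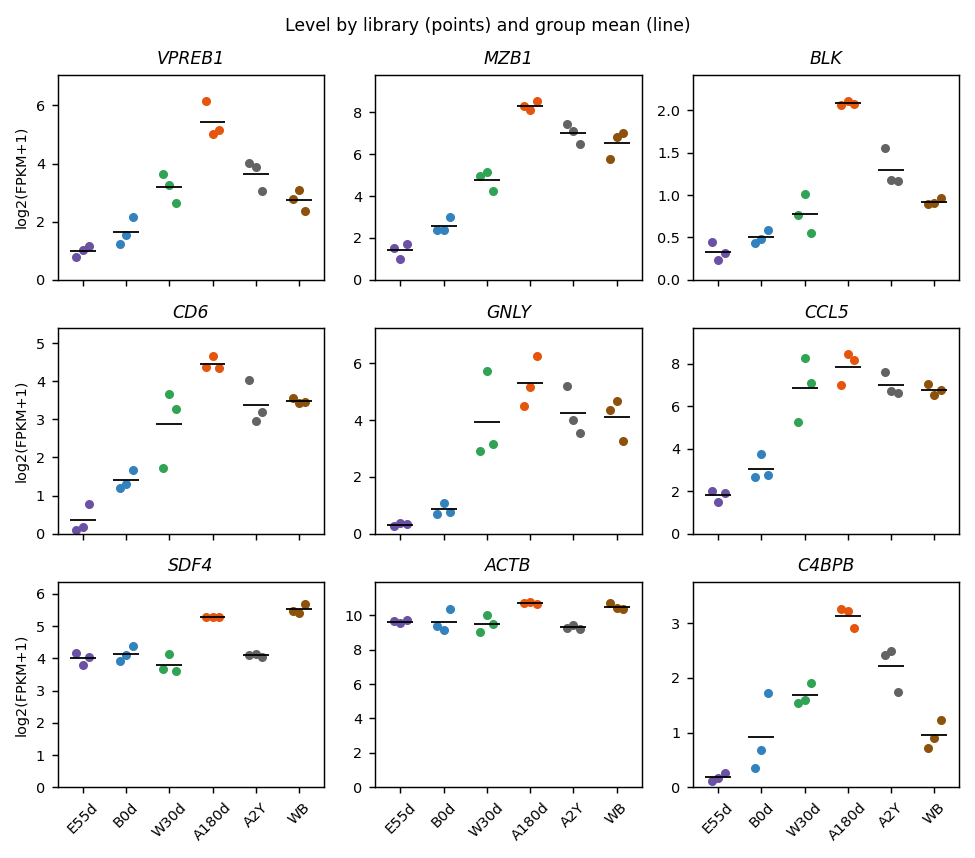
Points are single libraries, in the order of replicate number within a group, and lines are means of 3 libraries, on the log2(FPKM+1) scale from 0, for 9 of the genes. BLK is separate at A180d (2.06 to 2.11), GNLY and CCL5 overlap W30d and A2Y, SDF4 and ACTB are near their A180d level in WB, and C4BPB is lower in WB (0.72 to 1.24) than at A2Y (1.74 to 2.49).

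Complement and protease control was represented by CFD, C4BPB, C3 and A2M, with uneven replicates in CFD, A2M and C3. CFD, factor D, the protease that starts the alternative complement pathway and is made in quantity by fat cells, was 10.16, 9.55 and 7.87 at A180d and 7.99, 9.34 and 7.56 at A2Y. The CFD groups overlapped, and without A180d replicate 1 the margin was 0.41. A2M, a broad inhibitor of plasma proteases, was 5.77, 8.85 and 8.60 at A180d, with 5.33, 6.30 and 5.24 at A2Y. A180d replicate 1 of A2M lay among the other stages, and in WB it was 9.54, 5.57 and 5.81, so 1 animal was high there too. Without A180d replicate 1 the margin of A2M was 2.48 in place of 1.49. C3, the central complement protein, was 4.19, 4.19 and 4.31 at A180d but 2.76, 1.97 and 4.81 at B0d, where replicate 3 was above every A180d library. C4BPB, the beta chain of the complement inhibitor C4b-binding protein, was tighter, with 3.25, 3.22 and 2.91 at A180d, 2.42, 2.49 and 1.74 at A2Y and 1.55, 1.59 and 1.90 at W30d.

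The genes of the secretory pathway included some that were level before A180d. SDF4, a calcium-binding protein of the Golgi lumen, was 5.29, 5.29 and 5.27 at A180d. At the other domestic stages it stayed between 3.61 and 4.39, and in WB it was 5.47, 5.42 and 5.68. SDF4 was thus high in 2 of the 6 groups and level in the rest. CHST2, a sulfotransferase that modifies sugars of lymphocyte homing ligands, was 5.54, 5.48 and 5.13 at A180d, 4.48, 4.50 and 4.50 at A2Y and 5.27, 5.14 and 5.06 in WB. Others of the group were CRELD2, a chaperone, RER1, which returns proteins to the endoplasmic reticulum, MOGS, which trims N-glycans, and the glycosyltransferases CHPF, MFNG and ST6GALNAC4. Of the 9 genes, 2 rose at each step to A180d, against 64 of the 100 and 16.5% of all genes.

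Among genes of defence against nucleic acids and of cytokine signalling were ISG20 and TREX1, both exonucleases, IFI35, induced by interferon, RBCK1, a ubiquitin ligase subunit, and IL17RA, the receptor of interleukin 17. ISG20 was 4.35, 3.35 and 4.47 at A180d, 3.27, 3.50 and 2.99 at W30d and 3.03, 2.69 and 2.39 at A2Y, so W30d replicate 2 was above A180d replicate 2. IFI35 was 5.28, 5.13 and 5.31 at A180d and 4.68, 4.38 and 4.34 at A2Y. Of the 14 measured genes of the wider interferon list, limma called 0 between A180d and W30d, with 1 at an unadjusted p of at most 0.05. Over all genes, 12.8% were called higher at A180d than at W30d and 15.4% lower. Of the same 14 genes, 2 were called higher at A180d than at A2Y and 0 lower, against 3.26% and 10.8% of all genes.

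The remaining genes with large margins have varied roles. ACTB, cytoplasmic beta-actin, was 10.71, 10.74 and 10.61 at A180d, 9.27, 9.43 and 9.18 at A2Y, and 10.68, 10.42 and 10.35 in WB. Its earlier values ran from 9.03 to 10.35, so ACTB was not level over these libraries. PRDX5, a peroxidase that removes hydrogen peroxide, was 5.20, 5.02 and 5.16 at A180d and 4.48, 4.05 and 3.75 at A2Y. ATP5MC1, a subunit of the mitochondrial ATP synthase, was 7.17, 6.82 and 6.76 at A180d and 6.42, 5.82 and 5.61 at A2Y. SEPTIN1, a filament protein most abundant in lymphocytes, was 5.38, 5.38 and 5.15 at A180d, 4.76, 4.26 and 4.20 at A2Y and 3.77, 3.90 and 3.96 in WB. NHERF1, a scaffold of membrane proteins, was 5.41, 5.41 and 5.16 at A180d and 4.60, 4.54 and 4.03 at A2Y.

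MFSD10, a membrane transporter, was 2.99, 2.92 and 3.12 at A180d, 2.09, 2.23 and 1.64 at A2Y and 2.81, 2.75 and 3.18 in WB. TSC22D4, a leucine zipper protein, was 2.97, 3.16 and 2.86 at A180d, 2.12, 2.09 and 1.60 at A2Y and 2.67, 2.69 and 2.88 in WB. CNP, BCAS4, FAM53B and PLEKHF1 had margins of 0.98, 1.01, 0.94 and 0.93. CSKMT, a mitochondrial lysine methyltransferase, had a margin of 1.22 but 1 high library at W30d (2.13) and 1 at A2Y (1.83). AMBN, which encodes a protein of tooth enamel and is named here because its presence was noticed after the values were seen, was 2.62, 2.90 and 2.51 at A180d and 1.89, 1.81 and 1.73 at A2Y. In the RefSeq gene order (assembly Sscrofa11.1) 1 gene, ENAM, lies between AMBN and JCHAIN, the gene of the antibody joining chain, which was not matched by symbol in the table. Whether reads of neighbouring genes entered the AMBN values was not tested.

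The largest margin of all, 2.87, belonged to an identifier with no symbol, ENSSSCG00000020578. It was 11.84, 11.09 and 11.84 at A180d, 9.02, 8.45 and 8.67 at A2Y, between 0 and 5.88 at the earlier stages, and 10.89, 9.98 and 8.51 in WB. Over the 37 genes with no symbol the median FPKM, from mean log2 values as above, was 50.4 at A180d, 20.7 at A2Y and 21.0 in WB, against 15.7, 8.90 and 9.88 over the 63 with one.

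Wild Boar values were not used by the margin and entered the choice only through the limit on the overall mean. A2Y and A180d did enter it, and genes chosen to be low at A2Y and high at A180d tend by that choice to be above A2Y and below A180d in any other group. The counts below are therefore read as a description. WB lay between the A2Y and A180d means for 54 of the 100 genes, at or above A180d for 13 and below A2Y for 33. It was nearer to A180d than to A2Y for 36, against 51.6% of all genes. The median of WB minus A2Y was 0.32 over the 100 genes and 0.01 over all genes, and the median of WB minus A180d was -0.69, against 0.09 over all genes.

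In limma's fit across all genes, 23 of the 100 were higher in WB than at A2Y (10.8% of all genes were) and 4 were lower (9.57% of all). Between WB and A180d, 34 were lower in WB (5.14% of all genes) and 1, SIPA1, was higher (12.5% of all). Of all genes called between WB and A180d, 70.9% were higher in WB, and 54.5% after each library was scaled by the median ratio of its genes. After that scaling, 43 of the 100 were lower in WB and 1 was higher, against 1078 and 1293 of all 12913 genes. Every A180d library was above every WB library for 53 of the 100, against 12.9% of all genes. A comparison set was made of the 197 other genes that were higher at A180d than at A2Y by at least 0.75 but did not exceed every other domestic stage by that much. There WB was nearer to A180d for 46.7%, with a median WB minus A2Y of 0.40. Of the 118 genes lowest at A180d, WB was nearer to A180d for 64.4%. The share was 36.0% for the 100 genes, and the difference between the sets was not tested.

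The position of WB was also counted by role. Of the 14 B, plasma, T and NK cell genes, WB was nearer to A180d for 0, and it was below the A2Y mean for 9. The median WB minus A2Y over these 14 was -0.12 and the median WB minus A180d was -1.04. Of the 9 genes of the endoplasmic reticulum, Golgi and glycosylation, WB was nearer to A180d for 6, with a median WB minus A2Y of 0.67. Over all genes the share nearer to A180d was 51.6%. The counts were 3 of 5 for nucleic acid and cytokine defence, 2 of 4 for complement and protease control, and 15 of 31 for other roles. After the same scaling, they were 0 of 14, 6 of 9, 2 of 5, 1 of 4 and 15 of 31. The roles were assigned after the values were seen, so the contrast between them has no test.

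**Figure D3:**
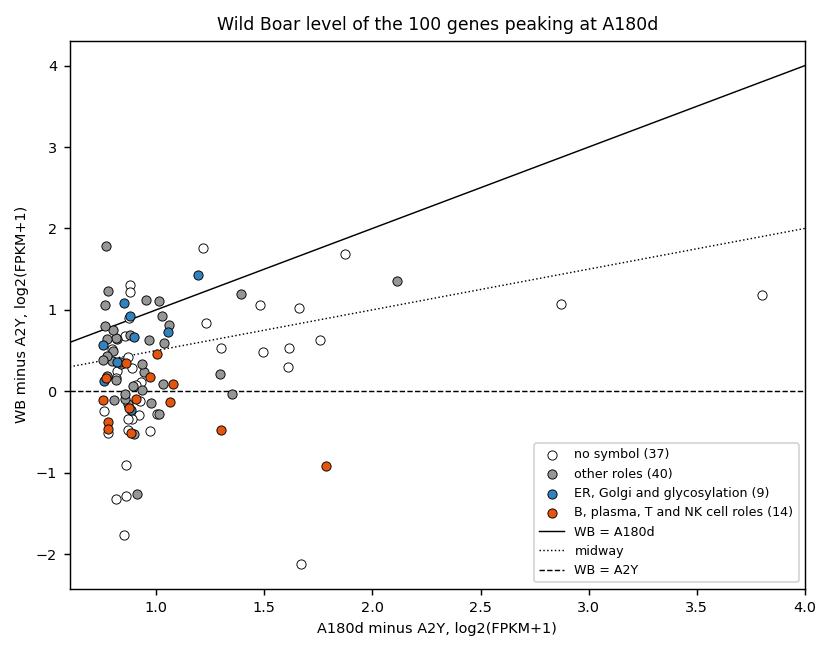
Each point is 1 of the 100 genes, with A180d minus A2Y on the x axis and WB minus A2Y on the y axis, both differences of means of 3 libraries in log2(FPKM+1). On the solid line WB equals A180d, on the dashed line it equals A2Y and on the dotted line it lies midway; all 14 lymphocyte genes (orange) are under the dotted line and 6 of 9 secretory pathway genes (blue) are above it.

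Among the genes with a symbol, those furthest above A2Y in WB were SIPA1, SDF4, A2M, SMIM7 and ACTB. Values at A2Y and A180d entered the choice of the set, and these genes are its extremes. The differences and p-values in this paragraph and the next are therefore descriptive. SIPA1, an activator of the GTPase activity of Rap proteins, was 5.11, 4.97 and 6.18 in WB, 4.38, 4.75 and 4.09 at A180d and 3.66, 3.50 and 3.75 at A2Y. WB was thus the highest group for SIPA1, with a difference from A2Y of 1.78 ± 0.29 (SE, limma adjusted p = 0.000837). Its difference from A180d was 1.01 (limma adjusted p = 0.0241), and this call was lost without A180d replicate 1 (1.00, limma adjusted p = 0.0639), A180d replicate 3 (0.86, 0.109) or WB replicate 3 (0.63, 0.129). The call was also lost when only the 2 groups were fitted (limma adjusted p = 0.068) or with the replicate number as a block (0.0635). For SDF4 the difference from A2Y was 1.43 ± 0.16 (limma adjusted p = 5.8e-05), and the WB libraries were above all A2Y and all A180d libraries. SMIM7, a small membrane protein, was 6.88, 7.22 and 7.45 in WB and 6.11, 6.10 and 5.66 at A2Y, a difference of 1.23 ± 0.22 (limma adjusted p = 0.00178). ACTB differed by 1.19 ± 0.28 (limma adjusted p = 0.00841), with all WB libraries above all A2Y libraries. A2M differed by 1.35 ± 1.31, which did not pass (limma adjusted p = 0.501) and rested on WB replicate 1, since without that library the difference was 0.07.

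Among the genes with a symbol, those furthest below A2Y in WB were C4BPB, VPREB1, SEPTIN1, IL21R and MZB1. C4BPB was 0.72, 0.90 and 1.24 in WB, below W30d as well, and its difference from A2Y was -1.26 ± 0.27 (limma adjusted p = 0.00506). VPREB1 differed by -0.91 ± 0.34 (limma adjusted p = 0.0703), short of the threshold, although 2 of 3 A2Y libraries were above every WB library. Without A2Y replicate 3 the difference in VPREB1 was -1.21 (limma adjusted p = 0.0362). SEPTIN1 at -0.53 ± 0.26, IL21R at -0.51 ± 0.25 and MZB1 at -0.47 ± 0.33 did not pass (limma adjusted p = 0.161, 0.163 and 0.330). BLK, with the smallest spread, was lower in WB by -0.38 ± 0.13 (limma adjusted p = 0.0418). That call did not hold with a pseudocount of 0.1 (limma adjusted p = 0.0899), or without A2Y replicate 1 (0.198), WB replicate 1 (0.0877), WB replicate 2 (0.0866) or WB replicate 3 (0.066). The other genes called lower in WB than at A2Y were ENSSSCG00000030730 and ENSSSCG00000001405, named because the count was small, at -2.12 and -1.32.

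Wider marker lists show what the lymphocyte genes stood beside. Only 5 of the 203 measured list genes were among the 100 (CD6, GNLY, CCL5, BLK and MZB1), and the lists were chosen with earlier results of these data known. From W30d to A180d, 7 of 9 B cell markers rose, 4 of 5 plasma cell markers, 7 of 13 T cell markers and 5 of 11 cytotoxic T and NK cell markers (limma; 12.8% of all genes rose and 15.4% fell). Without BLK, MZB1, CD6, GNLY and CCL5, which were chosen for being higher at A180d, the counts were 6 of 8, 3 of 4, 6 of 12 and 5 of 9. CD79B, a signalling chain of the B cell receptor, rose by 1.18 (limma adjusted p = 0.00413), and XBP1, a transcription factor of plasma cells, by 1.65 (limma adjusted p = 0.000678). CD8A, the co-receptor of killer T cells, rose by 1.68 (limma adjusted p = 0.0123), and CD247, a signalling chain of the T cell receptor, by 1.30 (limma adjusted p = 0.00388). Over the same interval, 11 of 14 cell division genes, 5 of 6 erythroid genes and all 5 platelet genes fell.

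Against A2Y few of the same markers were called. Only BLK of the B cell list and MZB1 of the plasma cell list were higher at A180d than at A2Y, and both are among the 100 chosen on that difference. Limma called 0 of 13 T cell and 0 of 11 cytotoxic markers. At an unadjusted p of at most 0.05, 3 T cell markers were higher at A180d, 1 was lower, and 0 cytotoxic markers passed. Over all genes, limma called 3.26% higher at A180d and 10.8% lower. MS4A1, which encodes the B cell antigen CD20, was 5.62 ± 0.17 at A180d and 5.91 at A2Y on average. CD79B was 6.29 ± 0.19 and 5.78, CD3D, a chain of the T cell receptor complex, 6.64 ± 0.09 and 6.36, and CD8A 4.55 ± 0.26 and 3.85 (SD, n = 3). The median of A180d minus A2Y, with the 5 chosen genes left out, was 0.51 over the cytotoxic list, 0.42 over the plasma cell list, 0.16 over the B cell list and -0.02 over the T cell list. The mean was highest at A180d among domestic stages for 9 of 11 cytotoxic markers, 7 of 13 T cell markers, 6 of 9 B cell markers and 4 of 5 plasma cell markers. These counts include 2, 1, 1 and 1 of the chosen genes, which the rule made highest there. The share over all genes was not counted, so nothing is read from them.

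**Figure D4:**
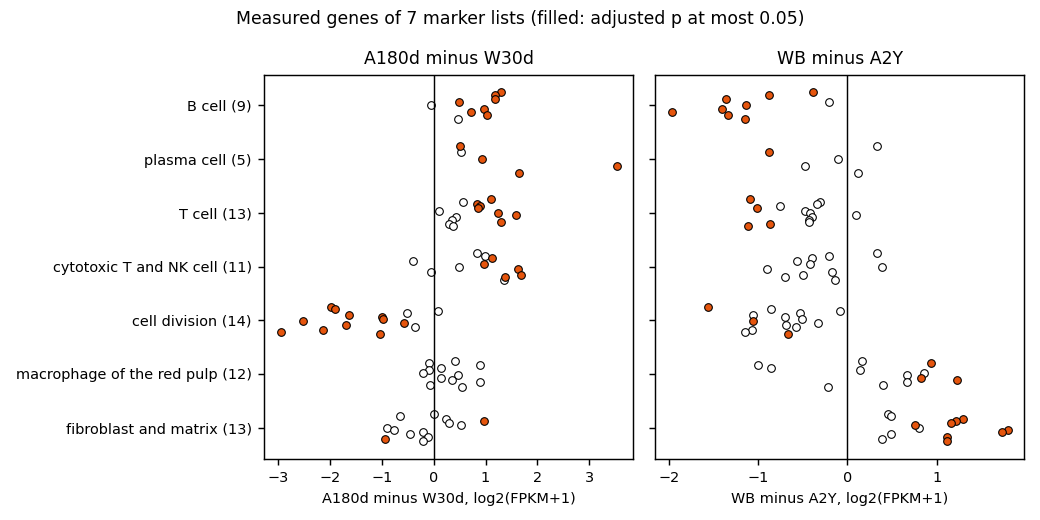
Each point is a measured gene of 1 of 7 marker lists, with the number of genes in parentheses, and the x axes are differences of group means in log2(FPKM+1), at left A180d minus W30d and at right WB minus A2Y; filled points have a limma adjusted p of at most 0.05. In the left panel most lymphocyte markers are above 0 and most cell division genes below it, and in the right panel 8 of 9 B cell markers are filled and below 0.

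B cell markers were lower in WB. Of 9 measured, BLK included, 8 were lower in WB than at A2Y by limma, against 9.57% of all genes, and the summed FPKM of the list was 57.5 to 65.1 in WB, 159 to 219 at A2Y and 190 to 213 at A180d. MS4A1 differed between WB and A2Y by -1.96 (limma adjusted p = 2.44e-05). Of the 13 T cell markers, 4 were lower, with a summed FPKM of 192 to 213 in WB and 247 to 425 at A2Y. Of the 11 cytotoxic markers 0 were called by limma, with 0 at an unadjusted p of at most 0.05, and their sums overlapped (190 to 216 in WB, 172 to 346 at A2Y). Plasma cell sums overlapped too, at 186 to 336 in WB and 259 to 360 at A2Y, with 449 to 634 at A180d. Among lists of other cells, 8 of 13 fibroblast markers and 3 of 12 red pulp macrophage markers were higher in WB than at A2Y, against 10.8% of all genes, and smooth muscle sums were 1477 to 2235 in WB against 773 to 1193 at A2Y. Of the immediate early genes, which respond within minutes to handling and stress, 7 of 13 were higher in WB than at A2Y, with a median difference of 1.20, and of the glucocorticoid response genes 4 of 7, with a median of 1.51. None of the 100 genes is on the fibroblast, macrophage, smooth muscle, immediate early or glucocorticoid list. The part of these lists in the WB levels of the 100 genes was not tested.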

How the data were processed

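RNA of whole spleen from 18 pigs was sequenced as strand-specific paired-end libraries. The authors mapped reads with TopHat to Sscrofa10.2 with newer sex chromosomes, used StringTie 1.3.3 to obtain FPKM of protein-coding genes and of lncRNAs, with Cufflinks 2.2.1 tools in assembly, and deposited log2(FPKM+1) per library. The build and tool versions come from the submitters' processing notes. Whether a scaling between libraries was applied is not given in the sources used here.

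The E55d columns carry numbers that match no replicate, so they were used without one. Identifiers (12432 Ensembl, 481 other) were paired with symbols by a gene table, 8215 of them, whose release may differ from the annotation used. No 2 libraries held identical values.

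Group means gave the 100 genes. Differences were tested with limma 3.58.1 in R 4.3.3 on the deposited log2 values, in 1 model of 6 groups with a mean-variance trend. P-values of each comparison were adjusted by Benjamini-Hochberg, and 0.05 was the limit. The study itself compared groups with read counts, which were not used here. A filter of FPKM over 0.1 in at least 3 libraries removed none of the 12913 genes, so all 100 passed. The fit was tested on simulated data.

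The members and lists were chosen with earlier results of these data known. Named genes are the 25 with a symbol and the largest margin, every member on a marker list, of those with a symbol the 5 largest and 5 smallest differences of WB from A2Y, and the genes at the edge of the rule. Others were named after their values were seen, as were the roles, and the comparisons of A180d with W30d and with A2Y and the summed list levels were added then. Of 28 lists with 431 symbols, 203 were measured. Depth per library was not used, since FPKM keeps no counts, and the number of animals limits the precision. An empty lncRNA cell was read as 0. Some items are not reported here.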

Additional observations from a re-analysis of the deposited data

How the results depend on the processing

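The number of genes peaking at A180d followed its settings. From 100 it went to 372 with a margin of 0.5, 25 with a margin of 1, 173 with a pseudocount of 0.1, and 152 after median-ratio scaling, of which 91 were among the 100. Group medians in place of means gave 130, with 76 among the 100, and leaving out 1 domestic library gave 72 to 159. The 18 lncRNAs became 35 with a margin of 0.5 and 9 with a margin of 1. Genes called between WB and A2Y numbered 1395 higher and 1236 lower in the fit of all groups, and 728 and 673 when only these groups were fitted. Leaving out 1 library gave 784 to 1368 higher, with the lowest count without WB replicate 3 and 855 without A2Y replicate 1. It gave 657 to 1236 lower, with 657 without A2Y replicate 1, 794 without WB replicate 1 and 806 without A2Y replicate 3. Between WB and A180d, 664 genes were lower, and 1078 after median-ratio scaling. Leaving out 1 library gave 428 to 514 lower, with 428 without A180d replicate 2, and 892 to 1769 higher, with 892 without A180d replicate 3 and 915 without WB replicate 3. These settings moved the number of the 100 genes called to 18 to 28 for WB against A2Y and to 25 to 44 for WB against A180d, from 27 and 35. The balance over all genes turned in 2 of them, with 981 higher and 1228 lower in WB than at A2Y without A2Y replicate 2, and 784 and 1236 without WB replicate 3. Among the 100, more genes were called higher than lower in WB against A2Y, and more lower than higher against A180d, under each of these settings. Choosing the genes as low at A2Y and high at A180d builds in part of that direction, so nothing is read from it. The cause of the shifts between settings was not tested.

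A fit with the replicate number as a block, without the E55d libraries, which have no number, gave 943 genes higher and 831 lower in WB than at A2Y, 22 of the 100 among them. It gave 1203 higher and 451 lower in WB than at A180d, 27 of the 100 among them. Deviations of libraries with the same number had correlations of 0.0011, -0.072 and 0.1194 between WB and A2Y. Between WB and A180d they were 0.1316, -0.1452 and 0.0409. Not every library correlated best with its own number. These values showed no pairing by number, but they are too few to settle whether the numbers pair the animals. The call of BLK as lower in WB than at A2Y was lost with the block (limma adjusted p = 0.0994), as was that of SIPA1 as higher in WB than at A180d (0.0635). With 3 animals per group, the spread rests on few libraries, and the number of reads behind low values is unknown.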
